A study of Mus musculus with 3 samples.

Results

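A set of 10 regulators of embryonic lineages was examined in the chromatin of fully-grown mouse germinal vesicle (GV) oocytes: the endoderm genes Sox17, Foxa2 and Pdx1, the mesoderm genes Eomes, Tbx5 and Myod1, the neural genes Pax6, Sox1 and Neurod1, and the trophectoderm gene Cdx2. They were chosen by name, and their neighbourhoods were all valid 2 kb windows that overlapped the gene body in GENCODE release M21 (GRCm38) or the 20 kb on either side of it. The neighbourhoods held 256 windows of the 1186323 valid windows of the genome, 71 of them in the bodies of the 10 genes and 185 in the flanks. Pdx1 and Cdx2 are neighbours on chromosome 5, and the 8 windows they share were counted once. A further 7 windows of these neighbourhoods (4 at Neurod1, 2 at Tbx5 and 1 at Sox17) were not among the valid windows and carry no value.

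H3K36me3 was measured with a native ChIP-seq protocol for very small inputs. The 3 replicates were each a pool of about 280 GV oocytes from wildtype C57BL6/Babr mice aged 25 days, and they form 1 group. The values are the deposited RPKM of each window, on a linear scale, and a window was called for H3K36me3 when the mean of the 3 replicates was above 1. For H3K4me3 and H3K27me3 the files hold 1 call per window with no value and no replicate, taken by the authors from earlier libraries of the same laboratory. Because every library was made from pooled oocytes, marks called on the same window cannot be told apart from marks on different oocytes or different alleles. Replicate 2 was made with less antibody. The windows held 7888140 reads in replicate 1, 2692510 in replicate 2 and 3166564 in replicate 3, so 1 read is worth 0.136, 0.396 and 0.338 RPKM, and a value above 1 takes 8, 3 and 3 reads. Single windows are therefore coarse, in replicates 2 and 3 above all. Whether PCR duplicates were removed is not stated, so read counts may hold copies of the same molecule, and limits derived from reads cover counting error only.

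H3K36me3 is laid down over transcribed gene bodies, which are also where the growing oocyte gains most of its DNA methylation. H3K27me3 is the mark of Polycomb repression, and H3K4me3 marks promoters and, in oocytes, also broad domains away from them. Genes that direct embryonic lineages are classic targets of Polycomb, and in embryonic stem cells many of their promoters carry H3K27me3 and H3K4me3 together, a state called bivalent. Their known roles lie in the embryo, in its extra-embryonic tissues and in adult organs.

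The promoters of 3 genes are shown because they stand for the patterns described below: Foxa2, inside the second longest H3K27me3 run over a start among these 10 genes; Pdx1, the exception without H3K27me3; and Cdx2, its neighbour on chromosome 5. The sequences are from RefSeq (GRCm38.p6), read 5′ to 3′ on the strand of the gene, and hold the bases before the gene start within the 250 bases that precede the RefSeq start; capitals mark CG dinucleotides. Foxa2 is chr2:148046970-148047219 on the reverse strand, Pdx1 is chr5:147269847-147269958 on the forward strand and Cdx2 is chr5:147307271-147307499 on the reverse strand.
Foxa2: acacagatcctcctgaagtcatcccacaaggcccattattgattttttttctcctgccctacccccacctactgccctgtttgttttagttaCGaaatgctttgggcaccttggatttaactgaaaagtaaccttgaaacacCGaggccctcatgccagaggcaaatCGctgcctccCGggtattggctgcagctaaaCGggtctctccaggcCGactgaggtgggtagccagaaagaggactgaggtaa
Pdx1: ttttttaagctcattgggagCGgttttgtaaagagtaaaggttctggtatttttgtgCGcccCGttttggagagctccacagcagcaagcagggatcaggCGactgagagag
Cdx2: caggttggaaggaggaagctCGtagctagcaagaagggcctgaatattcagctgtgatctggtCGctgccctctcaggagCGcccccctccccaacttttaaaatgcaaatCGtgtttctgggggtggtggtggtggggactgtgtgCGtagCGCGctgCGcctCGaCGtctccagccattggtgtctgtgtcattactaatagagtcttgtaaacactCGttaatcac
RefSeq promoters were matched for 7 of the 10 genes, and Sox17, Tbx5 and Myod1 had no entry. Over the whole 250 bases before the RefSeq start, the letters CG (the same on both strands) occurred 6 times at Foxa2, 8 at Eomes, 10 at Pdx1, 13 at Cdx2, 15 at Pax6, 22 at Neurod1 and 29 at Sox1. The median of 32841 mouse promoters of this length was 6, and 92.1% held at least 1 CG. Of the 250 bases, 224 at Sox1, 138 at Pdx1, 115 at Neurod1 and 21 at Cdx2 lay inside the GENCODE gene. The bases before the gene start held only 1, 4, 6 and 11 CG in these 4 genes. The order of the counts is thus partly one of sequence inside the genes.

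H3K27me3 was the most frequent mark around the lineage regulators. It was called in 157 of the 256 windows (61.3%), beside 30.0% of all valid windows. H3K4me3 was called in 139 windows (54.3%), beside 28.3%, and both marks together in 89 (34.8%), beside 9.46%. H3K36me3 went the other way: 38 windows were called (14.8%), beside 31.8% of all valid windows. H3K36me3 with H3K4me3 but without H3K27me3 was called in 9 windows (3.52%), beside 4.56%. Another 29 windows (11.3%) had no call, beside 26.6%. Neighbouring windows are not independent and the genes were chosen with earlier results of these data known, so these shares are descriptions without a test.

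The gene bodies were covered more densely than their surroundings. H3K27me3 was called in 58 of the 71 body windows (81.7%) and in 53.5% of the flank windows, H3K4me3 in 50 (70.4%) and in 48.1%. Most of this was the bivalent combination, since 42 body windows (59.2%) carried both marks. H3K36me3 was called in 8 body windows (11.3%) and in 30 flank windows (16.2%). Of those 8, 4 lay in Pdx1, 2 in Eomes, 1 in Tbx5 and 1 in Pax6. Without Pdx1, 4 of 67 body windows (5.97%) were called for H3K36me3 and 86.6% for H3K27me3.

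**Figure D1:**
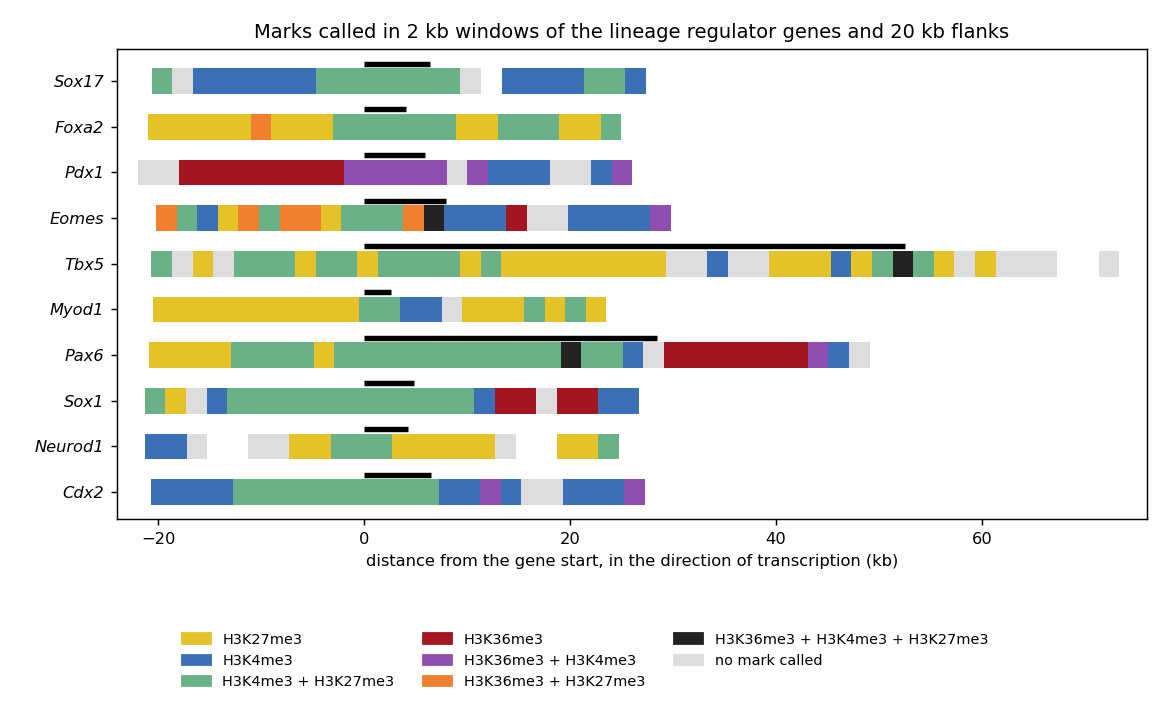
Marks called in each valid 2 kb window of the 10 genes (rows) against the distance from the gene start in kb, in the direction of transcription; black bars above the rows are the gene bodies and white gaps are windows that were not valid. Green (H3K4me3 with H3K27me3) covers the start of 8 genes, the start of Tbx5 is yellow (H3K27me3 alone), and Pdx1 is the only row with neither yellow nor green.

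At the window of the gene start, 8 of the 10 genes were called for H3K4me3 and H3K27me3 without H3K36me3, a call that 25.0% of the start windows of 20758 protein-coding genes had. Tbx5 was called for H3K27me3 alone, between windows on either side that carried H3K4me3 as well. Pdx1 was called for H3K36me3 and H3K4me3, a combination that 15.9% of start windows had. H3K27me3 was thus on 9 starts, beside 32.9% of all starts. H3K4me3 was on 9 starts as well, beside 78.0%, and H3K36me3 on 1, beside 22.8%.

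The start windows were rich in CpG sites. The count of CG in the 2 kb start window was 143 at Eomes, 131 at Cdx2, 122 at Sox1, 104 at Myod1, 94 at Foxa2, 91 at Pax6, 77 at Sox17, 56 at Neurod1, 49 at Pdx1 and 42 at Tbx5. The medians were 14 over all valid windows and 56 over the start windows of protein-coding genes. Among these genes the 2 starts without the bivalent call, Pdx1 and Tbx5, had the fewest CG. Over all protein-coding genes the median was 58 in start windows called for H3K4me3 and H3K27me3, 79 in those called for H3K36me3 and H3K4me3, and 16 in those called for H3K27me3 alone. A count of CG is a description of the sequence and says nothing of its methylation.

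The mean H3K36me3 of the body windows was 0.635, 0.508 and 0.581 RPKM in replicates 1, 2 and 3 (0.575 ± 0.064, SD, n = 3). In the flanks it was 0.663, 0.638 and 0.580 (0.627 ± 0.043, SD, n = 3). Bodies and flanks overlapped between replicates: the log2 ratio of bodies over flanks was -0.13 ± 0.18, and bodies were lower in 2 of the 3 replicates (two-sided exact sign-flip permutation test, p = 0.5, n = 3). The size and sign of that ratio depended on how regions were defined. It was -0.25 when windows were assigned by their midpoint, -0.28 with 10 kb flanks, -0.42 with 50 kb flanks and -0.20 without Pdx1, each at p = 0.25 in the same exact permutation test. It turned to 0.08 when each gene was given the same weight and to 0.02 when Tbx5 was left out.

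Bodies and flanks together were lower in H3K36me3 than the genome. Their mean was 0.655, 0.602 and 0.580 RPKM (0.613 ± 0.038, SD, n = 3), beside 0.902 ± 0.002 over all valid windows. The log2 ratio was -0.56 ± 0.09 and was negative in 3 of 3 replicates (two-sided exact sign-flip permutation test, p = 0.25, the smallest p that 3 replicates allow). It was -0.85 without Pdx1, -0.29 with 50 kb flanks and -0.14 ± 0.24 with medians over windows in place of means, where the medians differed in replicate 1 alone. In the 148 windows called for H3K27me3 and not for H3K36me3, the mean was 0.373 ± 0.054 RPKM (SD, n = 3), beside 0.344 ± 0.076 in such windows elsewhere in the genome. Both sets were chosen by a mean H3K36me3 of at most 1, so their levels are bounded by that choice and are given as a description. Within replicates the log2 ratio was 0.04, 0.07 and 0.28 in replicates 1, 2 and 3 (0.13 ± 0.13, SD, n = 3), a mean about as large as its SD.

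Of the 10 gene bodies, Pdx1 and Eomes had a mean above 1, a level that 52.5% of 21036 protein-coding gene bodies exceeded. The median of the 10 genes was 0.422 RPKM and that of all protein-coding genes 1.10. From low to high the order was Myod1, Sox17, Sox1, Neurod1, Pax6, Tbx5, Foxa2, Cdx2, Eomes and Pdx1. Up to Cdx2, each gene's replicates overlapped with those of the next gene in the order, so no neighbours among these 8 are separated. Genes further apart can be, since all replicates of Sox17 lay below those of Neurod1, Pax6 and Tbx5. Eomes lay 0.528 RPKM above Cdx2 and Pdx1 lay 1.62 above Eomes, in both cases without overlap of the replicates.

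**Figure D2:**
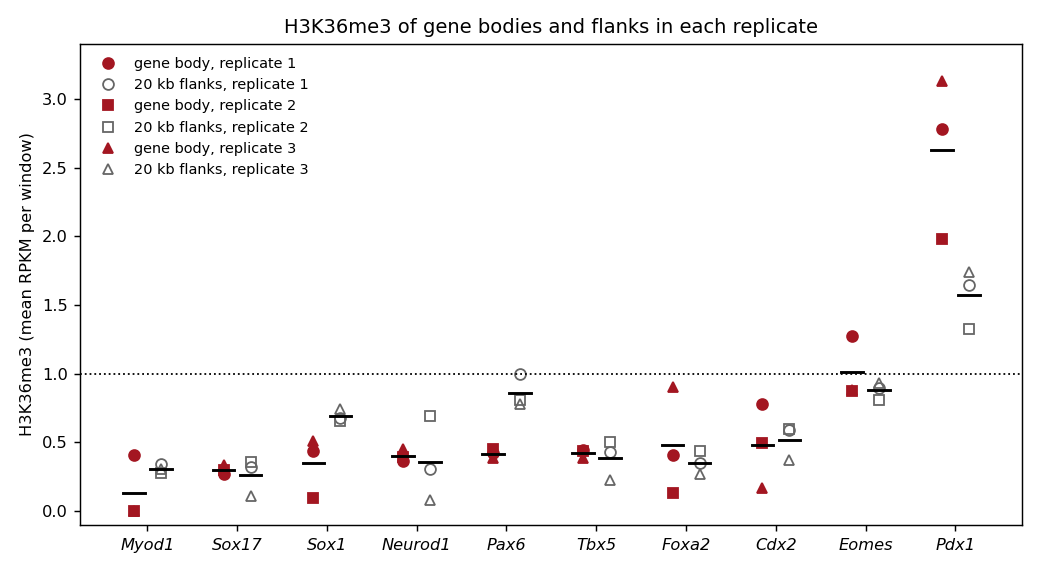
H3K36me3 in RPKM, as the mean over the windows of the gene body (filled) and of the 20 kb flanks (open), for each gene in order of its body mean; symbols are the 3 replicates, short lines their means and the dotted line the threshold of 1. The 3 bodies of Pdx1 (1.98 to 3.13) lie above every other body, and Eomes crosses the threshold in replicate 1 only.

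Sox17, a transcription factor that specifies definitive endoderm, had one of the lowest levels. Its body on chromosome 1 (4490931 to 4497354, reverse strand) had 0.272, 0.297 and 0.338 RPKM (0.302 ± 0.034, SD, n = 3, 15 reads in 4 windows). All 4 body windows were bivalent. A run is a stretch of adjacent 2 kb windows that all carry the call, and a window that is not valid ends it. The H3K27me3 run over the start of Sox17 was 14 kb long, inside an H3K4me3 run of 26 kb. H3K4me3 thus extended further than H3K27me3 here, with 21 of 23 windows of the neighbourhood against 10. No window of the neighbourhood was called for H3K36me3. The nearest such run was 22 kb long, began 22.9 kb beyond the end of the gene, and had 1.88 ± 0.21 RPKM (SD, n = 3).

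Foxa2, a pioneer factor for endoderm and its organs, showed the opposite proportion of the marks. All 23 windows of its neighbourhood were called for H3K27me3, and 10 also for H3K4me3. An H3K27me3 share at least as high was found in 1.11% of protein-coding genes. The run extended from 148010001 to 148130000 on chromosome 2, 120 kb in all, and 0.221% of the 81555 H3K27me3 runs of the genome were as long or longer. The run had 0.344 ± 0.060 RPKM of H3K36me3 (SD, n = 3). The body (148042877 to 148046969, reverse strand) had 0.407, 0.132 and 0.902 RPKM on 18 reads in 3 windows, so its mean of 0.481 ± 0.390 (SD, n = 3) is poorly determined. A single window 9.03 kb before the start was called for H3K36me3 on top of H3K27me3. It had 0.951, 1.98 and 0.338 RPKM, and only replicate 2 was above 1.

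Pdx1, the factor required for the pancreas to form, was the exception among the 10 genes. Its body on chromosome 5 (147269959 to 147275848, forward strand) had 2.78, 1.98 and 3.13 RPKM (2.63 ± 0.59, SD, n = 3, 139 reads), and every replicate lay above every replicate of the other 9 genes. The level was at or above that of 95.9% of protein-coding gene bodies. All 4 body windows were called for H3K36me3 and H3K4me3. None of the 24 windows of the neighbourhood was called for H3K27me3, while 15 were called for H3K36me3 and 11 for H3K4me3.

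The H3K36me3 of Pdx1 formed a run of 26 kb from 147252001 to 147278000, which began 18.0 kb before the start and ended 2.15 kb past the gene end. It had 2.64, 1.92 and 3.28 RPKM (2.61 ± 0.68, SD, n = 3, 442 reads in 13 windows). Of its length, 75.1% lay in Plut, an antisense gene annotated on the reverse strand that overlaps the start of Pdx1. A second run of 26 kb, from 147222001 to 147248000, lay further along Plut and had 2.18 ± 0.17 RPKM (SD, n = 3). Native ChIP-seq has no strand, so H3K36me3 of Pdx1 and of Plut cannot be told apart where they overlap. H3K4me3 covered the start over 10 kb, and 5 windows of the H3K36me3 run carried both marks. Of the 15 windows called for H3K36me3 around Pdx1, 11 were above 1 in each of the 3 replicates (73.3%), beside 62.1% of the called windows of the genome.

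Cdx2, which specifies the trophectoderm and later patterns the hindgut, lies 25.0 kb from Pdx1 on the other strand (147300805 to 147307270) with the 2 gene ends facing each other. Its body had 0.781, 0.495 and 0.169 RPKM (0.482 ± 0.306, SD, n = 3, 30 reads), and all 3 replicates lay below the lowest replicate of Pdx1. All 4 body windows were bivalent. The H3K27me3 run was 20 kb long, from 147300001 to 147320000, so that it began 22.0 kb from the end of the Pdx1 run of H3K36me3. H3K4me3 was broader, with a run of 44 kb, and 0.538% of the H3K4me3 runs of the genome were as long or longer. That run ended upstream of Cdx2 at a window that was not valid, with H3K4me3 called again beyond it. Between both genes, 2 single windows were called for H3K36me3 with H3K4me3, at 1.21 ± 0.47 and 1.02 ± 1.23 RPKM (SD, n = 3). The second of these had 0 reads in replicate 3.

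**Figure D3:**
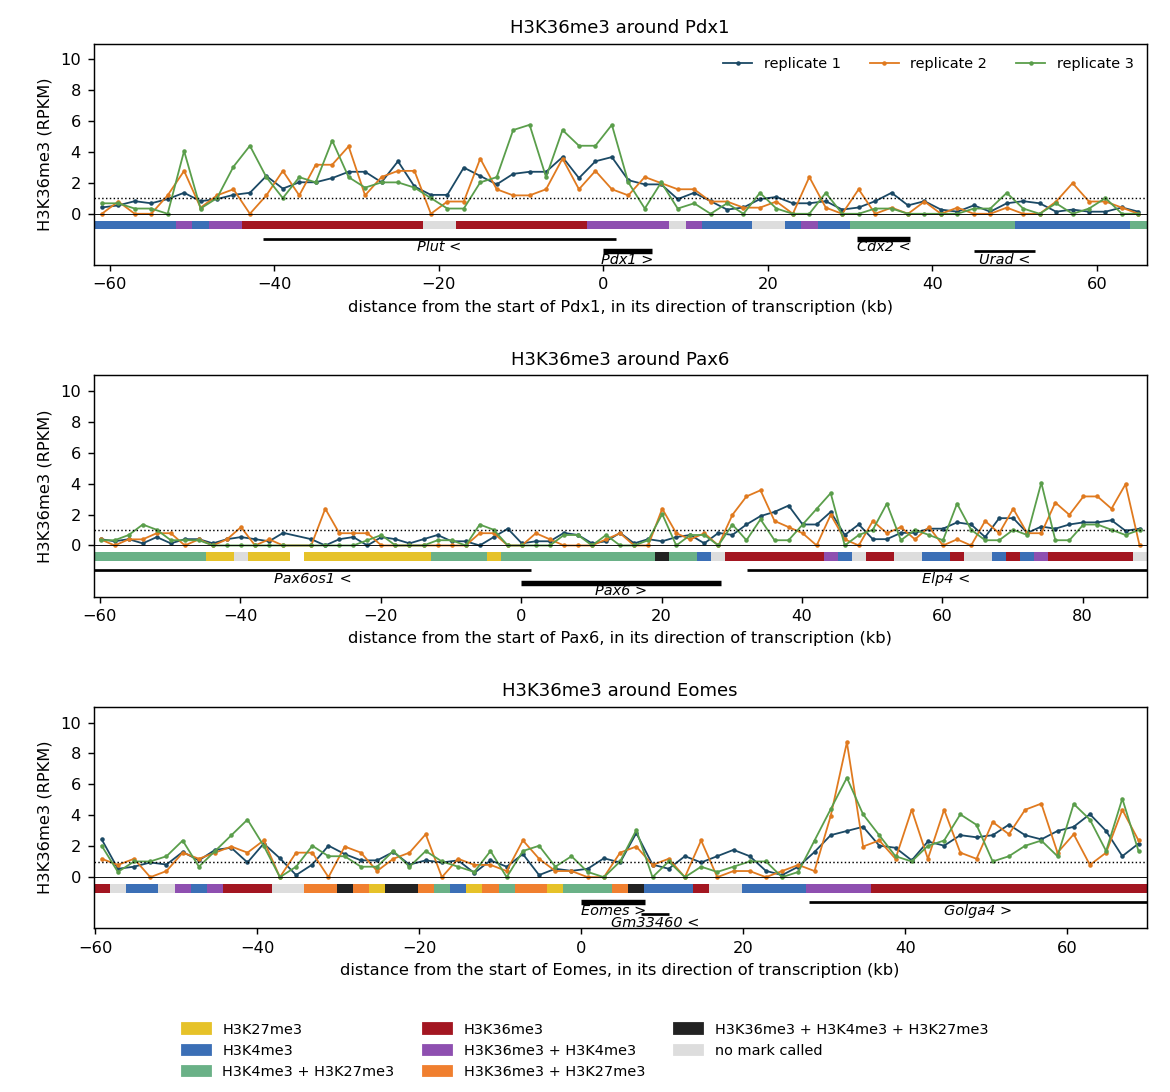
H3K36me3 in RPKM of each 2 kb window by replicate, against the distance in kb from the start of Pdx1, Pax6 and Eomes in their direction of transcription; the strip below each curve gives the marks called, black lines are genes with their direction, and the dotted line is the threshold of 1. The curves are high over Plut and Pdx1 and low over Cdx2, low over Pax6 and higher over Elp4, and high over Golga4 downstream of Eomes.

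Eomes, a T-box factor of the early mesoderm, endoderm and trophoblast, had the second highest level. Its body on chromosome 9 (118478212 to 118486132, forward strand) had 1.28, 0.872 and 0.880 RPKM (1.01 ± 0.23, SD, n = 3, 71 reads). Without replicate 1 the mean was 0.876, so its place above 1 rests on that library. The start was bivalent and 4 of the 5 body windows were called for H3K27me3. The 4 kb from 118482001 to 118486000, near the gene end, carried H3K36me3 together with H3K27me3, at 1.90, 1.78 and 2.03 RPKM (1.91 ± 0.12, SD, n = 3). Its signal was uneven. The window from 118484001 had a mean of 2.63 RPKM and was called for H3K4me3 as well. The window before it had a mean of 1.18 RPKM, with replicate 1 at 0.951. The antisense gene Gm33460 overlaps the end of Eomes and covered 11.05% of these 4 kb. H3K36me3 of the 2 genes cannot be told apart there. Upstream, a further 4 windows of the neighbourhood carried H3K36me3 with H3K27me3, at means between 1.12 and 1.85 RPKM. Around the 10 genes, 6 windows had this pair of calls and no H3K4me3, and 5 of them lay at Eomes. The 6 windows are 2.34% of the neighbourhoods, near the 2.06% of all valid windows. Over all called windows at Eomes, 3 of 8 were above 1 in each replicate. At the downstream edge, 19.9 kb from the gene end, began an H3K36me3 run of 88 kb with 2.71 ± 0.13 RPKM (SD, n = 3), and 86.7% of it lay in Golga4, which encodes a golgin of the trans-Golgi network.

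Tbx5, the T-box factor of heart and forelimb, is the longest of the genes and supplied 27 of the 71 body windows. Its body on chromosome 5 (119832668 to 119885219, forward strand) had 0.448, 0.440 and 0.389 RPKM (0.426 ± 0.032, SD, n = 3, 150 reads). H3K27me3 was called in 21 of these windows and H3K4me3 in 9. The H3K27me3 run over the start was 42 kb long and reached 29.3 kb into the gene. H3K36me3 was called in 1 window at the end of the gene, which also carried the other two marks. It had 0.679, 2.38 and 0.338 RPKM, above 1 in replicate 2 alone.

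Myod1, the master regulator of skeletal muscle, lay in the longest H3K27me3 run of the set. The run went from 46088001 to 46380000 on chromosome 7, 292 kb in all, and 0.0049% of H3K27me3 runs were as long or longer, where the median was 4 kb and the longest 456 kb. Nearly all of it, 288 kb, lay before the start of the gene. H3K36me3 over the run was 0.323 ± 0.099 RPKM (SD, n = 3). The body (46376474 to 46379099, forward strand) had 6 reads in replicate 1 and 0 in replicates 2 and 3, that is 0.407, 0 and 0 RPKM. With 2 windows, a count of 0 allows up to 0.595 RPKM in replicate 2 and 0.508 in replicate 3, taking 3 reads as the limit, so the low level of Myod1 is not distinguishable from that of its neighbours in the order. No window of the neighbourhood was called for H3K36me3, and the nearest lay 32.9 kb downstream in the potassium channel gene Kcnc1.

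Pax6, the regulator of eye, brain and pancreatic islets, changed from H3K27me3 to H3K36me3 along its neighbourhood. The body on chromosome 2 (105668900 to 105697364, forward strand) had 0.425, 0.449 and 0.384 RPKM (0.419 ± 0.033, SD, n = 3, 81 reads). H3K27me3 was called in 13 and H3K4me3 in 14 of its 15 windows. The H3K27me3 run of 56 kb ended at 105694000, inside the gene. Its other end, before the start, was a window that was not valid, with H3K27me3 called again beyond it. From 105698001, which is 0.637 kb past the gene end, an H3K36me3 run extended over 16 kb, with 1.70, 1.78 and 1.40 RPKM (1.63 ± 0.20, SD, n = 3, 169 reads). Of that run 81.1% lay in Elp4, which encodes a subunit of Elongator and is transcribed towards Pax6. None of the 9 Elp4 windows in the neighbourhood was called for H3K27me3, and 7 were called for H3K36me3. On the other side lies the antisense gene Pax6os1, and all 12 of its windows in the neighbourhood were called for H3K27me3. The nearest H3K36me3 window before the start of Pax6 was 233 kb away. Single windows here were uneven between replicates, with 2 of the 9 called windows above 1 in each replicate.

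Sox1, one of the earliest factors of the neural plate, had 0.441, 0.099 and 0.508 RPKM over its body on chromosome 8 (12395295 to 12400126, forward strand; 0.349 ± 0.219, SD, n = 3, 20 reads). The low value of replicate 2 is a single read. All 4 body windows were bivalent, in an H3K27me3 run of 24 kb and an H3K4me3 run of 28 kb. Downstream, 2 runs of H3K36me3 of 4 kb each lay in the overlapping transcript gene Sox1ot, at 1.75 ± 0.87 and 1.40 ± 0.40 RPKM (SD, n = 3). They carried neither of the other marks.

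Neurod1, a factor of neuronal and endocrine differentiation, had 0.362, 0.396 and 0.451 RPKM over its body on chromosome 2 (79452521 to 79456751, reverse strand; 0.403 ± 0.045, SD, n = 3, 15 reads). All 3 body windows were called for H3K27me3 and 2 also for H3K4me3. The H3K27me3 run over the start was 20 kb and the H3K4me3 run 6 kb long. No H3K36me3 window lay within 20 kb, and the nearest was 23.3 kb upstream. The gene overlaps Cerkl, on the same strand, and 10 of the 11 Cerkl windows in the neighbourhood were called for H3K27me3.

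Sox17, Myod1 and Neurod1 were thus the 3 of 10 genes with no H3K36me3 window in the neighbourhood, beside 14.4% of protein-coding genes. In 6 of the 10, every body window was called for H3K27me3 and none for H3K36me3, beside 8.99% of protein-coding genes. At least 1 body window was called for H3K27me3 in 9, beside 43.9%. The bodies of those 6 genes held only 2 to 4 windows each, and the shares over all genes were not matched for length. Of the 38 H3K36me3 windows around the 10 genes, 18 (47.4%) were above 1 in each replicate, a smaller share than the 62.1% over the genome. The runs at Pdx1, Elp4 and Golga4 rest on many windows, whereas the single called windows at Foxa2 and Tbx5 rest on replicate 2.

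Other lineage regulators, a list of 36 genes, had body levels like those of the 10 genes. Their median was 0.382 RPKM, and 5 were above 1, among them Neurog3, Tbx6 and Gsc, beside 52.5% of protein-coding gene bodies. H3K27me3 was on 32 of their 36 start windows, beside 32.9% of protein-coding starts, and 30 were bivalent without H3K36me3, beside 25.0%. The highest were Neurog3, the factor of endocrine pancreas precursors (2.31 ± 0.36, SD, n = 3), and Tbx6, of the presomitic mesoderm (1.78 ± 0.78). The lowest were Hand1 (0.068 ± 0.060) and Ptf1a (0.157 ± 0.140). Their bodies held 3 and 2 windows, with 0 RPKM in replicate 2 for Hand1 and in replicate 3 for Ptf1a. Both levels are thus near the counting floor, and Ptf1a is not distinguishable from Myf5 (0.165 ± 0.053). Neurog3 and Tbx6 shared with Pdx1 that every body window was called for H3K36me3 and none for H3K27me3.

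Among 16 relatives from the same gene families the median was 0.393 RPKM, and 3 were above 1, beside 52.5% of protein-coding gene bodies. These were Tbx4 (1.84 ± 0.20), Pax2 (1.43 ± 0.07) and Tbx3 (1.07 ± 0.37). Unlike Pdx1, all 3 had bivalent starts and at least 3 body windows called for H3K27me3. H3K27me3 was on 13 of the 16 starts, beside 32.9% of protein-coding starts. The pairs Sox2 and Sox3, paralogs of Sox1, had 0.181 ± 0.170 and 0.204 ± 0.353, with 2 bivalent body windows each. Both levels are poorly determined, since Sox2 had 0 RPKM in replicate 2 and Sox3 had 0 in replicates 2 and 3. The genes of these lists were chosen with earlier results of these data known, and examples beyond the highest and lowest were picked after their values were seen.

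**Figure D4:**
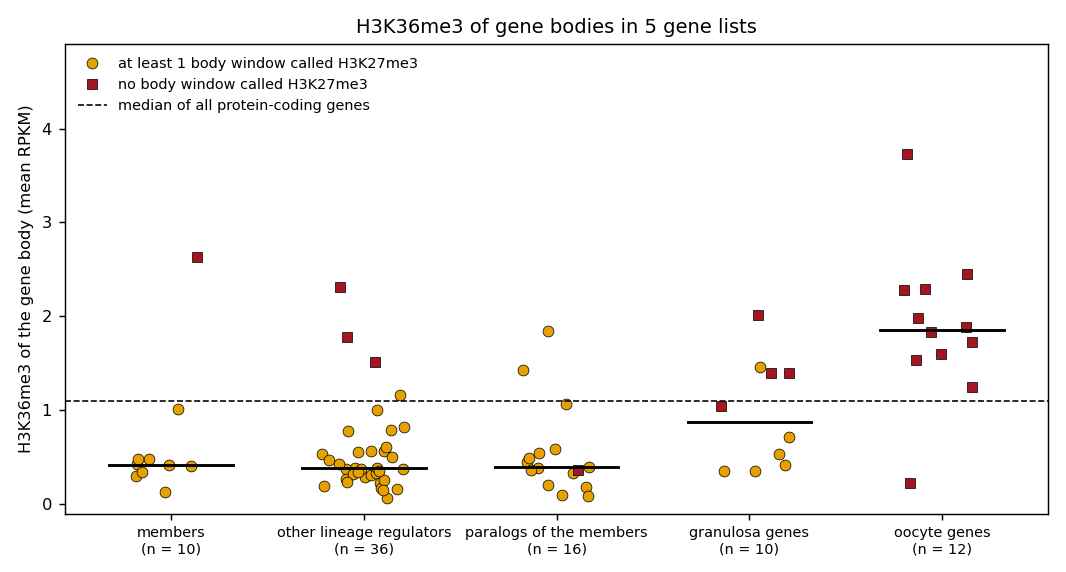
H3K36me3 of gene bodies in RPKM (mean of 3 replicates; 1 point per gene) for the 10 lineage regulators and 4 other lists, with the number of genes below each; black lines are list medians, the dashed line is the median of all protein-coding genes (1.10), and circles and squares separate genes with and without an H3K27me3 body window. In the first 2 lists the points above the dashed line without H3K27me3 are Pdx1, Neurog3, Tbx6 and Gsc.

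The labelled cell type was checked with 12 oocyte genes, of which 11 were above 1, with a median of 1.86 RPKM. None of them had an H3K27me3 body window, and the exception in level was Zar1 (0.224 ± 0.042, SD, n = 3). Of 10 granulosa genes, which mark the somatic cells around the oocyte, 5 were above 1 and the median was 0.881. Among all protein-coding gene bodies 52.5% were above 1, so the granulosa count was near that share. At least 1 H3K27me3 body window was found in 6 of the 10 granulosa genes, beside 43.9% of protein-coding genes. The list mean of granulosa genes ranged from 0.905 to 1.04 RPKM over the replicates and that of oocyte genes from 1.76 to 1.98, and no granulosa gene was at 0. The part of granulosa chromatin in the levels above was not tested.

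The genes whose marks were most like the 10 regulators were found by the Euclidean distance, over the shares of body and flank windows called for each of the 3 marks, to the median of the 10. Among 20842 protein-coding genes with at least 10 valid windows, the 5 closest outside the set were Samt3, Vgll2, Armcx2, 4933415F23Rik and Rln1, at distances between 5.11 and 8.43 percentage points. All 5 had every body window bivalent and none called for H3K36me3. The choice by distance largely fixed this, since the median of the 10 was 100% H3K27me3, 100% H3K4me3 and 0% H3K36me3 in bodies. Their body levels, between 0.177 and 0.437 RPKM, are bounded by the same choice and are given as a description. Of the 10 regulators, Sox1 was the closest to the common median, at rank 151, and Pdx1 the farthest, at rank 13643.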

How the data were processed

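Native ChIP-seq for H3K36me3 was available for 3 samples of 1 group. Reads were trimmed by the authors, aligned to GRCm38 using Bowtie2 2.2.9 (per the submitters' processing notes) and quantified in SeqMonk over 2 kb windows, of which those with extreme input reads were removed. They deposited an RPKM value per window and replicate, and a table of category names without values that gives the marks called in each window. RPKM was used as proportional to reads per window of fixed size. The deposited H3K36me3 call was compared with a mean above 1, with 0 differences.

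Members and gene lists were chosen with earlier results of these data known. Named were all 10 members, the neighbour with most H3K36me3 windows, the highest and lowest 2 genes of the list of other regulators, and the 5 closest genes by marks. Every other gene named was picked after its values were seen. A window belonged to a region when it overlapped it. Levels were means over windows in each replicate, then mean and SD over replicates, with no pseudocount and no filter on low values. Ratios were taken within replicates and tested with an exact permutation test that flips signs (two-sided), for which 3 replicates allow no p below 0.25. The body level, the flank level and their ratio were checked on simulated data, but the permutation test was not. Nothing in the labels says that the pools came from separate animals, so p-values measure only the spread between these samples. Listed alternatives were replicates left out, medians, midpoint overlap, equal weight per gene, other flanks and other thresholds. CpG counts used the RefSeq copy of GRCm38 in 1185897 windows, without the mitochondrial genome and without windows that hold an undetermined base (N). Python 3.11.15, numpy 2.4.6, pandas 2.3.3, scipy 1.17.1 and matplotlib 3.10.9 were used.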

Additional observations from a re-analysis of the deposited data

How the results depend on the processing

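Of 74 values recomputed under alternatives, 2 reversed and 12 values or shares without a test moved beyond the replicate spread or beyond 1.5 times. The other 60 did neither, but ratios among them were judged by direction and threshold alone, which no p could pass, so their size could still change, as given above for other flanks, medians and Pdx1 left out. The body level became 0.381 RPKM as a median over windows, 0.664 as the mean of the genes' own values, 0.452 without Pdx1 and 0.666 without Tbx5. The flank level became 0.426 as a median, 0.696 with 10 kb flanks, 0.766 with 50 kb flanks and 0.521 without Pdx1. The log2 ratio of bodies over flanks reversed to 0.083 with equal weight per gene and to 0.019 without Tbx5, and the cause was not tested. Leaving out Pdx1 or Tbx5 was chosen after seeing the data. The share of windows called for H3K36me3 was 40.6% at a threshold of 0.5 (49.7% of all valid windows), 8.59% at 1.5 (22.7%), 4.30% at 2 (15.0%) and 7.03% when each replicate had to be above 1 (19.7%), below the genome each time. Leaving out each replicate in turn gave 0.545 to 0.608 for bodies, 0.609 to 0.651 for flanks, -0.20 to -0.03 for bodies over flanks, -0.61 to -0.52 for neighbourhoods over all windows, and 0.06 to 0.17 for H3K27me3 windows here over elsewhere. The share of windows called H3K36me3 was then 16.0% to 18.4%, beside 31.6% to 32.4% of all valid windows. With 2 replicates the smallest exact p is 0.5. The median of H3K27me3 windows gave no ratio because it was 0 in replicate 2. No paired analysis was possible because there is only 1 group to pair, and ratios between regions were taken within each replicate. Depth limits single windows and the short genes: the bodies of Myod1, Sox17 and Neurod1 rest on 6, 15 and 15 reads.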

Other observations

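Some genes of the comparison lists had marks that their list did not share. Gsc, a homeobox gene of the organiser, had 2.24, 0.793 and 1.52 RPKM of H3K36me3 over its 2 body windows (1.52 ± 0.72, SD, n = 3), with no H3K27me3 window and a start called for H3K4me3 alone. Foxa3 was the 1 paralog of 16 with no H3K27me3 window in its body, at 0.366 ± 0.162 RPKM, and all 6 of its body windows were called for H3K4me3. Among granulosa genes, Nr5a2 had 2.02 ± 0.20 RPKM and 56 of 60 windows called for H3K36me3, whereas Fshr, the receptor for follicle-stimulating hormone, had 0.353 ± 0.031 RPKM and 80 of 102 windows called for H3K27me3. These genes were chosen after their values were seen.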
